A study of Mus musculus with 2 samples.

Results

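Promoter-shoulder peaks are described here: anti-FLAG peaks whose region of maximum signal lay 1 to 3 kb from the nearest transcription start site (TSS). They were the peaks that the authors' annotation placed in its promoter classes of 1 to 2 kb or 2 to 3 kb, which made 9268 of 99782 annotated peaks. Of these, 4295 lay upstream of the TSS and 4973 downstream of it, that is, past the start in the direction of transcription. The tissue was hippocampus from untreated C57BL/6J animals whose genotype is named CamK-PARIS, profiled by CUT&Tag, in which an antibody tethers the transposase Tn5 to chromatin so that nearby DNA is cut and tagged for sequencing. There was 1 library made with an antibody against the FLAG peptide and 1 made with IgG as negative control, both of this genotype. The labels do not say which promoter or cell type drives PARIS, how many animals gave tissue, their age, or which cells carried the tag. The IgG library enters only through the authors' peak calling. With 1 library per antibody, no value has a replicate error and no condition was tested. All intervals are 95% intervals for counting error over peaks of this library, and peaks of 1 library are not replicates.

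PARIS is a zinc-finger protein of the KRAB family, encoded in the mouse by Zfp746, and is known as a repressor of transcription. It has been reported to bind insulin response sequences, short T-rich words found upstream of genes such as Pck1 and Ppargc1a. Active promoters of brain tissue are open and often rich in CpG dinucleotides at the start itself. The DNA on either side of it passes into the upstream intergenic region or a neighbouring gene on one side and into the gene body, mostly intron 1, on the other.

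The summit windows of 8 peaks are printed first, as examples from among the tallest peaks, with and without a searched word. Each is 200 bp of the mm10 reference (GRCm38) centred on the region of maximum signal and read 5′ to 3′ on the strand of the assigned gene. Capitals mark the insulin response sequence (TATTTTT or TATTTTG on either strand) or the 7-base word TGANTCA, with N for any base. TGANTCA is a looser form of the AP-1 site, which is TGACTCA or TGAGTCA. The AP-1 examples were added after their values were seen, and windows that overlap an untranslated region were passed over. The 4 upstream windows are Il1r1 (chr1:40222675-40222874, plus strand), Cers1 (chr8:70317195-70317394, plus strand), Ppp1r1b (chr11:98346508-98346707, plus strand) and Agpat4 (chr17:12212459-12212658, plus strand).
Il1r1: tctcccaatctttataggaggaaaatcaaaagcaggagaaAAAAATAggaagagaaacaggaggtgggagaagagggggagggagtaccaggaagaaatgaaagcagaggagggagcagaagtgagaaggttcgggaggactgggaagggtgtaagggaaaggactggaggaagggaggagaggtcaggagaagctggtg
Cers1: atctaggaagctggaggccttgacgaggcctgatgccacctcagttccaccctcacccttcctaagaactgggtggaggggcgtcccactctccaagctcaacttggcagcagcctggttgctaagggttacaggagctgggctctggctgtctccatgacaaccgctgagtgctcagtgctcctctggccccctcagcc
Ppp1r1b: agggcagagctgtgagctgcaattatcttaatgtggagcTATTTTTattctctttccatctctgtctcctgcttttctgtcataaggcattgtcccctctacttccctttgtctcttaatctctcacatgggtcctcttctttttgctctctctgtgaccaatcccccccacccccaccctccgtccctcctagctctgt
Agpat4: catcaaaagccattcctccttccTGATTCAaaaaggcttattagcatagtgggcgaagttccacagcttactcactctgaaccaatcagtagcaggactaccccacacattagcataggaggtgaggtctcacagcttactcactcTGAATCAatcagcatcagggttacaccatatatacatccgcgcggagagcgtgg
The 4 downstream windows are Jph4 (chr14:55108620-55108819, minus strand), Prr12 (chr7:45050987-45051186, minus strand), Atp2c1 (chr9:105492870-105493069, minus strand) and Cx3cl1 (chr8:94773490-94773689, plus strand).
Jph4: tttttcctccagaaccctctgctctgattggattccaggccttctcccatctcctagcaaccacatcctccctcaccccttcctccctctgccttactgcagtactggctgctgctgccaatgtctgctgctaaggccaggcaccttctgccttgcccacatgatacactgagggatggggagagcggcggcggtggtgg
Prr12: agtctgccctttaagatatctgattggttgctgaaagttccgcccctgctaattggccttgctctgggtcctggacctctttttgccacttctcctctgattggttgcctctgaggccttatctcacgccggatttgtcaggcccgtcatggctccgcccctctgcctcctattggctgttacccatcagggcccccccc
Atp2c1: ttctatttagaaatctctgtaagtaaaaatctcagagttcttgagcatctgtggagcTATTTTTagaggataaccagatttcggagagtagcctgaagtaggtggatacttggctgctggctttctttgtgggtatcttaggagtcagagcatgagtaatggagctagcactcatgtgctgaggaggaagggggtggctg
Cx3cl1: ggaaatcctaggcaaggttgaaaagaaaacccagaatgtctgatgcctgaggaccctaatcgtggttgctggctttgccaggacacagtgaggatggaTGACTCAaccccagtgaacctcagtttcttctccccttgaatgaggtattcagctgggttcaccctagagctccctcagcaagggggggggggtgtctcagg

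These windows differ in composition. Cers1, which encodes a ceramide synthase, had 60.5% GC and 3 CpG dinucleotides, and no base of it was repeat-masked. Il1r1, the type 1 receptor of interleukin-1, had 50.5% GC in a purine-rich window of which 53.5% was repeat-masked. Its match is the word AAAAATA, which is TATTTTT on the other strand. Ppp1r1b, which encodes the phosphatase regulator DARPP-32, carried TATTTTT in the window of a peak 1789 bp upstream of its TSS. That peak had a maximum signal of 512 (the highest coverage within the peak, as the authors deposited it). Atp2c1, a Golgi calcium and manganese pump, carried TATTTTT in the window of a peak 1437 bp downstream, in intron 1, with a maximum of 409. Agpat4, an acyltransferase of phospholipid synthesis, held TGATTCA and TGAATCA, neither of which is TGACTCA or TGAGTCA. The maximum of this peak was 488, and its region of maximum signal lay 2564 bp upstream. Cx3cl1, the neuronal chemokine fractalkine, held TGACTCA in the window of a peak 1318 bp downstream, in intron 1, with a maximum of 528. The windows of Cers1, Jph4 and Prr12 held neither marked word.

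Upstream peaks made 46.3% of the promoter-shoulder set (45.3 to 47.4), so downstream peaks outnumbered them. The space on the 2 sides differs in size, since TSSs lie close to each other along genes. Counting was therefore repeated per Mb of reference bases whose nearest TSS lies 1 to 3 kb away on that side, which was 73.4 Mb upstream and 77.5 Mb downstream. Density was 58.5 peaks per Mb upstream and 64.1 downstream, a ratio of 0.913 (0.876 to 0.951). The ratio was 0.908 (0.860 to 0.959) from 1 to 2 kb and 0.918 (0.863 to 0.977) from 2 to 3 kb. On 17 of 19 autosomes upstream peaks were fewer, and the upstream share per autosome ranged from 42.7% on chromosome 4 to 50.6% on chromosome 2 (mean 46.4 ± 2.37, SD over autosomes). Chromosomes 2 and 6 were the 2 autosomes with more upstream peaks.

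Over the whole first 1 kb the order of the sides was the other way round, at 127 per Mb upstream and 120 downstream. The ratio was 1.06 (1.02 to 1.10), without the 3021 peaks whose region of maximum signal lay on a TSS. The first 250 bp carried that order, with 222 per Mb upstream and 167 downstream. In the next 3 bins upstream was already the lower, at 107 against 115, 81.7 against 101 and 68.8 against 83.3. For constant-height peaks, defined below, the ratio within 1 kb was 0.963 (0.912 to 1.02). The fall with distance was steep close to the TSS and shallow across the shoulder. Upstream, density was 67.2 per Mb between 1000 and 1250 bp, just inside the inner border of the set, and 50.6 between 2750 and 3000 bp. Downstream, the same bins held 74.0 and 57.5 per Mb. Just past the outer border, from 3000 to 3250 bp, they held 49.1 and 58.6. The density ratio from 3 to 5 kb was 0.902 (0.859 to 0.947), so the lower upstream density was not particular to the shoulder.

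**Figure D1:**
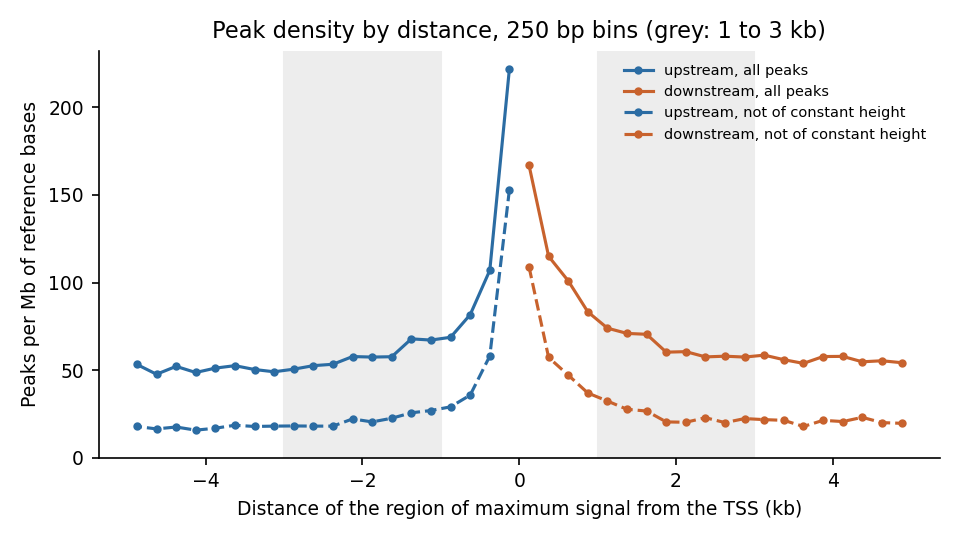
Peaks per Mb of reference bases (vertical axis) in 250 bp bins of distance from the TSS in kb (horizontal axis, negative upstream), for all peaks (solid) and peaks not of constant height (dashed), with grey over 1 to 3 kb. For all peaks, upstream density is the higher in the first bin (222 against 167 per Mb) and the lower in the bins of the grey areas. For peaks not of constant height this does not hold in every grey bin (22.2 upstream against 20.3 downstream from 2000 to 2250 bp).

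The ratio was also computed by kind of start site. A TSS was called outermost if no other TSS of its gene lay further upstream, and internal otherwise. Around outermost TSSs the density was 58.1 per Mb upstream and 71.4 downstream, a ratio of 0.814 (0.755 to 0.877). Around internal TSSs it was 58.9 and 62.4, a ratio of 0.943 (0.895 to 0.995). The upstream densities of the 2 kinds were within 1 peak per Mb of each other, whereas the downstream density was higher at outermost TSSs. Upstream peaks were assigned to an outermost TSS in 50.7% of cases (2176 peaks) and downstream peaks in 20.4% (1015 peaks), a difference of 30.3 percentage points (28.4 to 32.1). Outermost TSSs held 51.0% of the upstream and 18.3% of the downstream reference space, so these shares of peaks are near the shares of space.

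The 2 sides also lay in different parts of genes. With GENCODE M21 gene bodies, 62.1% of upstream peaks (2664) and 95.2% of downstream peaks (4732) had the middle of the maximum inside some gene, against 62.7% of all annotated peaks. The sign of the distance sets much of this contrast, since a position past a start is inside the gene unless the gene is short. Inside the assigned gene itself lay 47.5% of upstream and 91.3% of downstream peaks. Only another gene held 14.6% of upstream peaks, on the opposite strand for 8.11% and on the same strand for 5.64%. Outside all genes lay 37.9% of upstream peaks (1629) and 4.77% of downstream peaks (237). An exon was hit by 8.92% of upstream and 18.8% of downstream peaks. Of the downstream peaks, 56.7% (2817) lay in intron 1 of the assigned transcript, 12.4% in intron 2, 3.56% in exon 2 and 1.95% in exon 1. A further 16.1% lay beyond the end of a short assigned transcript.

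**Figure D2:**
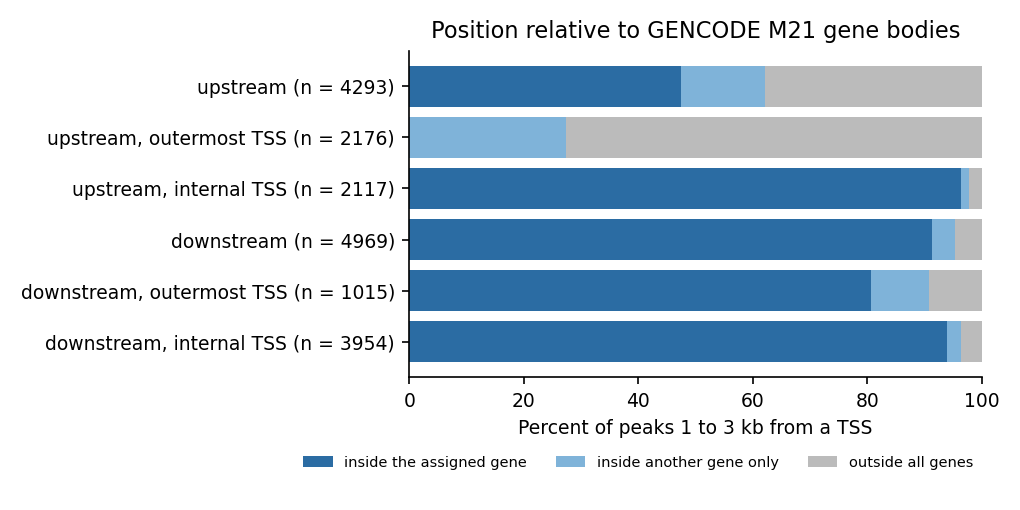
Percent of promoter-shoulder peaks (horizontal axis) whose region of maximum signal lay inside the assigned gene, inside another gene only or outside all genes, by side and by kind of TSS (rows, with the number of peaks). For internal TSSs both sides are almost wholly inside the assigned gene (96.3% upstream, 94.0% downstream), and for outermost TSSs 72.6% of upstream peaks are outside all genes.

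Positions were also split by kind of TSS, and the definition of the kinds sets much of the outcome. No position upstream of an outermost TSS can lie in the assigned gene. Upstream of an internal TSS, the assigned gene has a further start and mostly continues. Of upstream peaks at outermost TSSs, 72.6% lay outside all genes and 27.4% in another gene, with 15.4% on the opposite strand only. At internal TSSs, 97.7% of upstream and 96.4% of downstream peaks were inside a gene body, a difference of 1.33 percentage points (0.417 to 2.17). A TSS of another gene lay within 3 kb of 4.31% of upstream and 6.56% of downstream peaks. Another peak lay within 500 bp of 16.9% of upstream and 18.7% of downstream peaks, against 14.4% of all annotated peaks and 28.4% and 28.6% of the peaks within 1 kb.

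Height and shape were compared next. Median maximum signal was 98.0 upstream (quartiles 64.0 and 134, range 6 to 969) and 101 downstream (quartiles 67.0 and 136, range 6 to 757). The difference of −3.0 had an interval from −5.24 to 0.162, which includes 0. Of 14 alternative settings, 7 gave an interval without 0, among them protein-coding genes only (−5.83 to −0.764), and all 14 had the lower median upstream. Median width was 376 bp upstream and 383 bp downstream, a difference of −7.00 bp (−21.9 to 11.4). Many peaks of this list had the same coverage over almost their whole width, and a peak was called of constant height where the total signal was at least 99% of maximum signal times width. Not of constant height were 37.2% of upstream (1599) and 38% of downstream peaks (1891), a difference of −0.796 percentage points (−2.77 to 1.18), against 36.7% of all annotated peaks. Both shares are close to that background, which includes the peaks within 1 kb of a TSS (58.7% upstream and 54.6% downstream). The difference was larger at outermost TSSs, at −4.44 (−8.10 to −0.814), and among genes with a peak within 1 kb of a TSS, at −2.47 (−4.90 to −0.0276), and neither interval includes 0. A maximum signal of at least 200 was reached by 355 upstream peaks (8.27%) and 438 downstream peaks (8.81%), against 8.78% of all annotated peaks.

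In height and shape, the shoulder differed more from the TSS-proximal peaks than its 2 sides differed from each other. Within 1 kb, again without the peaks on a TSS, median maximum signal was 121 upstream and 116 downstream, a difference of 5.0 (2.17 to 7.83). There 58.7% of upstream and 54.6% of downstream peaks were not of constant height, a difference of 4.15 percentage points (2.39 to 5.90). The tallest 10% of all annotated peaks, which had a maximum of 189 or more, included 9.45% of upstream (8.61 to 10.4) and 10.4% of downstream shoulder peaks (9.62 to 11.3). They included 25% of upstream and 19.7% of downstream peaks within 1 kb. Among shoulder peaks not of constant height, the median maximum was 131 upstream and 135 downstream and the median width 615 and 625 bp. The constant-height peaks were lower and narrower, at 87.5 and 89.0 in maximum signal and 268 and 252 bp in width. How many separate fragments a peak of constant height rests on cannot be read from these values and was not tested.

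**Figure D3:**
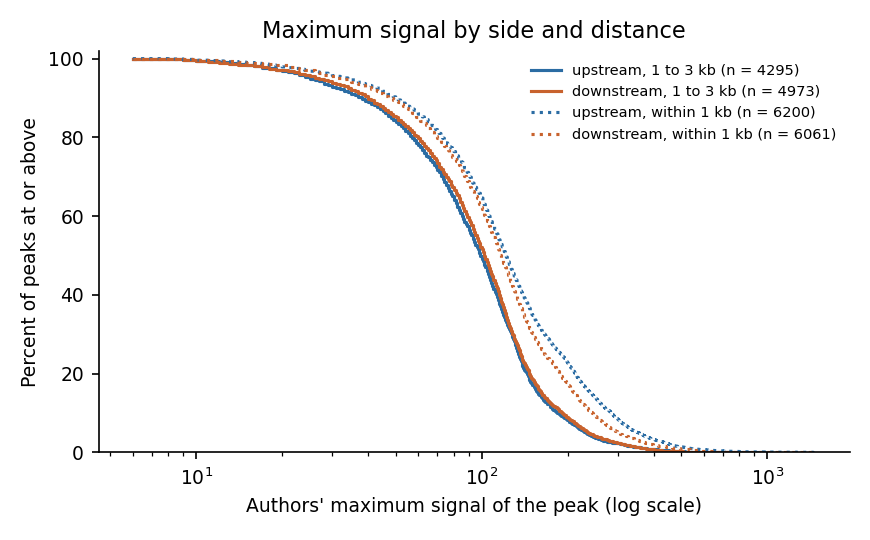
Percent of peaks (vertical axis) with at least the maximum signal on the horizontal axis (log scale, the authors' coverage units), for upstream and downstream peaks 1 to 3 kb (solid) and within 1 kb (dotted) of a TSS. The 2 solid curves nearly coincide, with medians of 98.0 and 101, and both dotted curves lie to their right, with medians of 121 and 116.

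Among the 8 tallest upstream peaks were those of Il1r1 (692, 2280 bp upstream), Cers1 (633, 1036 bp upstream) and Ccnd2 (601, 1343 bp upstream). Il1r1 had no peak within 1 kb of a TSS, and its summit lay outside all genes. The Cers1 summit was inside the gene, upstream of an internal TSS. Its peak was 1905 bp wide and came to 152 bp from that TSS. The tallest peak with its region of maximum signal within 1 kb of a Cers1 TSS reached 65. The Ccnd2 peak was 4879 bp wide and covered the TSS of this cyclin gene as well as that of the opposite-strand transcript 9330179D12Rik, so it was a shoulder peak by its maximum only. Kctd1 (562), Nrn1 (554), which encodes the activity-induced neurite growth factor neuritin, and Zfp385a (544) were also among them.

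Downstream, the tallest peak was that of Jph4, a neuronal junctophilin that ties the plasma membrane to the endoplasmic reticulum, at a maximum of 757 and 1835 bp from the TSS. The gene also had a peak of 690 within 1 kb of a TSS. Prr12 followed at 628, 1793 bp downstream in intron 2. Tmem37, related to calcium channel gamma subunits, had 578 at 1614 bp in its intron 1. Dnmt3a, a de novo DNA methyltransferase, had 577 at 1483 bp in intron 1 of a transcript with an internal TSS. The peak assigned to Mir8104 had 577 as well and lay within Ppm1h, a phosphatase gene on the same strand. Stac3 (568), Plekhg5 (551) and Rab6b (536), a neuronal Rab GTPase of the Golgi, completed the 8 tallest.

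Total signal, the coverage summed over the peak, brought forward broad peaks. The highest total of the set was 1027054 at Stac3, a gene known from excitation-contraction coupling in muscle, over 6161 bp. Its maximum lay 2332 bp from the TSS and outside all gene bodies. Upstream, the 5 highest totals included Ccnd2 (666635), Mir129-2 (621643), Dtx3 (503005) and Ssbp4 (473651). The peaks of Mir129-2, Dtx3 and Ssbp4 each covered the TSS of the assigned gene, with widths of 4524, 5879 and 2796 bp. Downstream, Dnmt3a (744612), Maml3 (558910), a Notch co-activator, Nrxn2 (464077), a presynaptic adhesion molecule, and Camk2n1 (426114), an inhibitor of CaMKII, came after Stac3. Of these, the peaks of Stac3 and Maml3 stopped 377 and 1504 bp short of the TSS. Those of Dnmt3a, Nrxn2 and Camk2n1 covered the TSS of the assigned gene, with widths of 3615, 4458 and 2748 bp. Such overlap was rare: the whole peak reached the TSS for 16 upstream (0.373%) and 15 downstream peaks (0.302%). It came within 1 kb of the TSS for 7.06% and 7.85%.

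The peaks were spread over many genes. The set was assigned to 6403 genes, of which 1833 had more than 1 shoulder peak, and 91.5% of upstream and 91.9% of downstream peaks belonged to protein-coding genes. Of 20867 protein-coding genes, 15.2% (3172) had an upstream and 17.3% (3616) a downstream shoulder peak. Both were present in 4.95% (1033), and at least 1 in 27.6% (5755). The number of annotated starts per gene went with these shares. Of genes with 1 TSS, 7.47% had an upstream and 9.28% a downstream shoulder peak; of genes with 5 or more TSSs, 23.2% and 25.3% did.

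A shoulder peak was more frequent in genes with a TSS-proximal peak. Among the protein-coding genes with a peak within 1 kb of a TSS, 22.8% had an upstream and 26.3% a downstream shoulder peak. Among those without one, the shares were 9.10% and 10.2%. Genes with more TSSs also had a proximal peak more often (64.1% with 5 or more TSSs, 21.7% with 1), and the part of the TSS number in this difference was not tested. Seen from the peaks, the assigned gene also had a proximal peak for 67.0% of upstream and 67.9% of downstream peaks, a difference of −0.915 percentage points (−2.83 to 0.995). Within each kind of TSS the direction was the opposite, at 8.57 (4.86 to 12.3) for outermost TSSs (58.9% against 50.3%) and 2.98 (0.653 to 5.26) for internal TSSs (75.4% against 72.5%). Without constant-height peaks the difference was −3.88 (−6.87 to −0.891). Where a gene had both, the tallest shoulder peak had a median of 0.690 times the maximum of the tallest proximal peak upstream (0.658 to 0.717, 2230 genes) and 0.705 times downstream (0.681 to 0.735, 2572 genes). The shoulder peak was the taller in 32.1% of genes upstream and 32.6% downstream.

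Adgrb1, an adhesion G protein-coupled receptor of brain, had the most shoulder peaks, with 5 upstream and 8 downstream of 8 of its 12 TSSs. Their maxima ranged from 18 to 236, and 8 of the 13 were not of constant height. The gene is 73.3 kb long and had 50 assigned peaks in all. Its relative Adgrb2 had 10 (6 upstream, 4 downstream, maxima from 20 to 337). Nrxn2, Myo18a and Kalrn, a guanine nucleotide exchange factor of dendritic spines, had 9 each. All 9 peaks of Nrxn2 were not of constant height, against 4 of the 9 of Kalrn. Each of these 5 genes has at least 11 annotated TSSs, where the median protein-coding gene has 3.

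Among 9 genes linked to PARIS by earlier reports or by the genotype's name, 3 had a shoulder peak (33.3%), close to the 27.6% of all protein-coding genes. Camk2a, a calcium/calmodulin-dependent kinase of excitatory forebrain neurons, had an upstream peak of 219 at 1969 bp, an upstream peak of 63 at 2797 bp and a downstream peak of 146 at 2322 bp. Its tallest peak within 1 kb of a TSS reached 300. Nrf1, a regulator of nuclear genes for mitochondrial proteins, had downstream peaks of 71 at 1725 bp and 75 at 2552 bp, both of constant height. The first of these had an insulin response sequence in its window. Pck1, the gluconeogenic enzyme PEPCK, had a single upstream peak of 132 at 1777 bp, of constant height, 179 bp wide and without that sequence in its window. Its maximum is above the median of 101 for all annotated peaks, but 36.7% of those were not of constant height, so the comparison mixes shapes. No peak of the list was assigned 1 to 3 kb from a TSS of Ppargc1a, G6pc, Igfbp1, Mdm4, Tkt or Zfp746. Within 1 kb of a TSS, Mdm4 and Zfp746 had peaks of up to 239 and 166, and Ppargc1a, G6pc, Igfbp1 and Tkt had none.

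Lists of cell-type and functional genes were counted in the same way, against the 27.6% of protein-coding genes with a shoulder peak. Of 12 excitatory neuron genes, 10 had one. The tallest was upstream of Slc17a7, the vesicular glutamate transporter VGLUT1, at 413, followed by Camk2a at 219 and Neurod2 at 180 (downstream). Of 24 synaptic genes, 19 had one, with Gria2, an AMPA receptor subunit, at 320 and Shank1, a postsynaptic scaffold, at 299, both downstream. Syp (233, downstream) and Vamp2 (230, upstream), proteins of synaptic vesicles, came next. Of 15 immediate early genes, 11 had one, with 7 having an upstream peak, 9 a downstream peak and 5 both. The 4 tallest were upstream: Nr4a1 at 313, Fos at 241, Ier2 at 230 and Junb at 212. These genes encode factors that neuronal activity induces.

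The other lists ranged from below this background to above it. Interneuron genes had 4 of 12, led by Gad1, which makes GABA, at 162, although 10 of 12 had a peak within 1 kb of a TSS. Astrocyte genes had 5 of 10, with Sox9 at 229 and the glutamate transporter Slc1a2 at 166, both downstream. Oligodendrocyte genes had 2 of 10 (Mbp at 104 among them). Microglial genes had 2 of 10, both downstream: Csf1r, the receptor of colony-stimulating factor 1, at 284, and Aif1 at 65. Endothelial genes had 4 of 8, with Cdh5 at 120 and Flt1 at 97. Genes of other organs had 2 of 12, Cd3e of T cells at 66 and Sftpc, a lung surfactant protein, at 339. Housekeeping genes had 11 of 16, with Gusb at 231 and Tbp at 149, both downstream, and genes of the respiratory chain, listed together with the mitochondrial transcription factor Tfam, 4 of 16 (Tfam included), with Uqcrc1 at 158 and Uqcrc2 at 134. The lists differ in the median number of TSSs per gene, from 2 for interneuron to 6.5 for astrocyte genes, and its part in these counts was not tested.

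**Figure D4:**
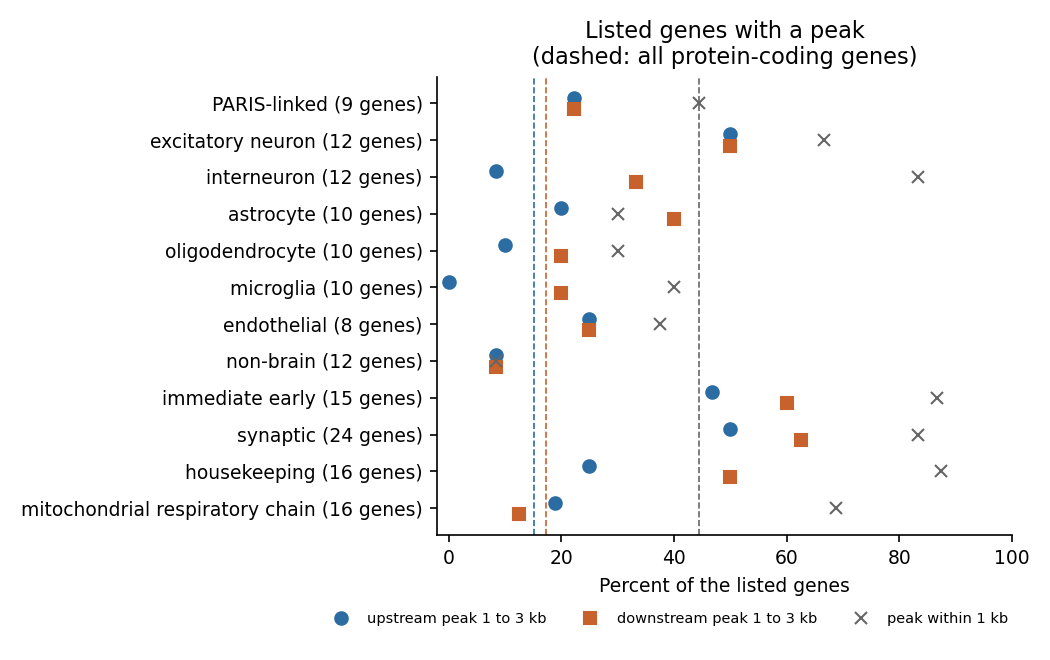
Percent of the genes of each list (horizontal axis, list size in brackets) with an upstream or a downstream peak 1 to 3 kb from a TSS and with a peak within 1 kb, with dashed lines for the same shares of all protein-coding genes. Excitatory neuron (6 of 12), synaptic (12 of 24) and immediate early genes (7 of 15) have the highest upstream shares, and no microglial gene has an upstream shoulder peak.

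Base composition of the 2 sides was compared in the summit windows. Summit windows had a mean GC content of 49.3% ± 7.51 upstream and 50.1% ± 7.94 downstream (SD over peaks), a difference of −0.795 percentage points (−1.11 to −0.480), with 49.0% over all annotated peaks. At outermost TSSs the difference was −1.83 (−2.43 to −1.23), and at internal TSSs it was −0.358 (−0.763 to 0.0459), which includes 0. Windows within 1 kb of a TSS had 55.8% and 56.9%. A window was called CpG-rich at a GC content of at least 50% and a ratio of observed to expected CpG of at least 0.6. That held for 3.45% of upstream (148) and 4.33% of downstream windows (215), against 7.18% of all annotated peaks and over 31% on both sides within 1 kb. The shoulder therefore held a smaller share of CpG-rich summits than the peak list as a whole, which includes those peaks within 1 kb. The share among peaks further than 3 kb from a TSS is not given here. More than 50% of the window was repeat-masked for 17.1% of upstream and 11.0% of downstream peaks, a difference of 6.07 percentage points (4.65 to 7.50).

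Windows 1000 bp to either side were compared with the summits. The window towards the TSS lies nearer to the promoter than the summit and can reach the TSS, so it is not a like background. In broad peaks a flank can also lie inside the same peak. Summits exceeded the flank away from the TSS by 2.70 percentage points of GC on both sides. Against the flank towards the TSS, summits were 1.15 points higher upstream but 0.588 points lower downstream, and the 2 sides differed by 1.74 points (1.33 to 2.14). CpG-rich windows were more frequent in that flank than at the summit, at 6.15% upstream and 11.2% downstream.

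The insulin response sequence was found in 9.71% of upstream (417) and 9.18% of downstream summit windows (456), a difference of 0.537 percentage points (−0.655 to 1.74), against 9.97% of all annotated peaks. Both shares are near that background, which includes the peaks within 1 kb of a TSS (6.03% upstream and 5.91% downstream). The flanks held it more often: 11.4% towards and 11.8% away from the TSS for upstream peaks, and 9.46% and 11.5% for downstream peaks. Summit minus flank was −1.65 (−2.94 to −0.369) and −2.12 (−3.42 to −0.824) upstream. It was −0.282 (−1.40 to 0.841) and −2.35 (−3.55 to −1.16) downstream. Over all annotated peaks the flanks held 13.3% and 13.8%, and summit minus flank was −3.35 and −3.80, so the lower share at the summit was not particular to the shoulder. Among peaks not of constant height the word was in 7.38% of upstream and 6.09% of downstream summits. Those summits were also richer in GC, at 51.9% and 52.7%, and the part of base composition in these shares was not tested.

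TGANTCA, in contrast, was more frequent at the summit than beside it. It was in 9.25% of upstream and 8.17% of downstream summit windows, a difference of 1.08 percentage points (−0.0723 to 2.24). Its flanks held 5.54% and 6.08% upstream and 4.89% and 6.00% downstream, towards and away from the TSS. Summit minus flank was 3.70 (2.61 to 4.79) and 3.17 (2.05 to 4.29) upstream, and 3.28 (2.30 to 4.26) and 2.17 (1.16 to 3.19) downstream. Over all annotated peaks 9.41% of summits and 5.94% and 6.06% of flanks held it, so the excess at the summit was not particular to the shoulder. With only TGACTCA or TGAGTCA counted, a choice made after the first values were seen, shares were 6.57% upstream and 6.16% downstream, against 3.80% and 3.94%, and 3.0% and 4.09%, in the flanks. Among shoulder peaks with a maximum of at least 200, these 2 words were in 10.4% of upstream and 10.3% of downstream summits, near the 9.83% of all annotated peaks of that height.

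**Figure D5:**
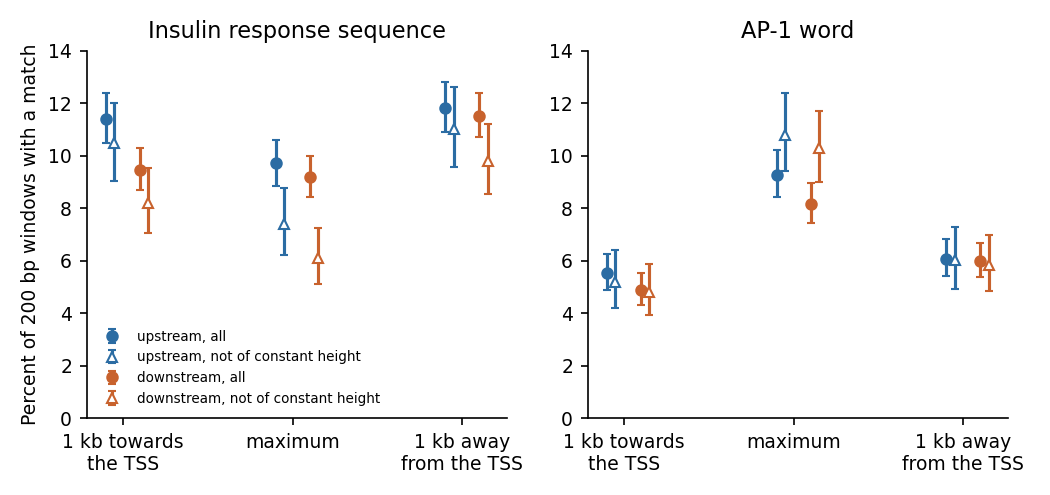
Percent of 200 bp windows with a match (vertical axis, with 95% Wilson intervals) at the region of maximum signal and 1 kb towards or away from the TSS, for the insulin response sequence (left) and the AP-1 word (right), by side, for all shoulder peaks (filled) and those not of constant height (open). The AP-1 word is most frequent at the maximum on both sides (9.25% and 8.17%), whereas the insulin response sequence is no more frequent there than in the flanks.

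Other words gave smaller or no contrasts. CAGATG, the E-box of NEUROD factors (on the other strand CATCTG), was in 16.6% of upstream and 16.2% of downstream summits, against 16.7% of all annotated peaks. The EGR word GCGNGGGCG was in 0.233% and 0.402% of summits and in 0.629% and 1.45% of the flanks towards the TSS. These flanks lie nearer to the promoter than the summits do. Over all annotated peaks the order was the opposite, with 0.783% of summits and 0.504% of those flanks. That set includes the peaks within 1 kb of a TSS, of which 3.92% upstream and 2.84% downstream held the word at the summit. The CTCF core was in 0.466% and 0.523% of summits, and the NRF1 word in 1 upstream and 3 downstream windows. GTTGCNA, which matches a half-site of RFX factors, was searched after it had been noticed in the windows of Cers1 and Jph4. It was in 5.61% of upstream and 5.29% of downstream summits, and no summit minus flank interval on either side excluded 0 (0.419, −0.534 to 1.37, and 0.606, −0.352 to 1.56, upstream, and −0.101, −0.983 to 0.782, and −0.181, −1.06 to 0.702, downstream). Over all annotated peaks 5.84% of summits held it, and summit minus flank was 0.366 (0.164 to 0.569) and 0.340 (0.137 to 0.543). A match is a description of letters in the window and not a bound site.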

How the data were processed

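CUT&Tag peaks of 1 anti-FLAG library were analysed, called against 1 IgG library. Per the labels' protocols, the authors mapped trimmed read pairs to mm10 using Bowtie2, filtered out duplicates and poor alignments, and ran SEACR on what was left; versions and the SEACR mode are not given in the sources used here. The deposited signal columns are coverage summed over a peak and its highest coverage. The signed distance in bp, deposited as a score per peak, runs from the nearer edge of the region of maximum signal to the TSS. Sequencing depth is unknown from these files, and no IgG signal was used.

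The members are the rows with the authors' classes for 1 to 2 kb and 2 to 3 kb. Values over all annotated peaks include the members and the peaks nearer to a TSS. Values by side within 1 kb leave out the 3021 peaks on a TSS, which the gene counts of peaks within 1 kb include. The members and gene lists were chosen with earlier results of these data known. Positions, exons and gene bodies came from GENCODE M21 and sequence from GRCm38.p6, on chromosomes 1 to 19, X and Y, where all but 6 members lay. The authors' table gave no Ensembl gene for 98 members. Reference space was counted from the 103000 GENCODE transcripts with an Entrez gene, which gave the authors' distance for 90.3% of members. Shares have Wilson intervals, differences of shares Newcombe intervals, medians exact order-statistic intervals and means normal intervals; summit minus flank used paired normal intervals and density ratios a log-scale count interval. No test was run. Motifs were searched on both strands. Alternatives were other thresholds of height, width, shape and window, 1 peak per gene and side, GENCODE classes and, chosen after seeing the data, subsets by kind of TSS, by neighbouring TSS and by proximal peak. Genes named are those of the 8 tallest and the 5 largest peaks by total signal per side, the 5 genes with the most shoulder peaks, the PARIS-linked list and the 2 to 4 tallest of each other list. Some of these are not reported here. Scripts used Python 3.11.15, numpy 2.4.6, pandas 2.3.3, scipy 1.17.1 and matplotlib 3.10.9, and were tested on simulated data.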

Additional observations from a re-analysis of the deposited data

How the results depend on the processing

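With 1 library, no replicate could be left out. No paired analysis was possible because each antibody has 1 library. For 9 results, 123 alternatives were computed, of which 34 were chosen after seeing the data; 105 gave a value within the interval of the reported one. Of these, 4 had the other sign: 1.50 bp for median width from 2 to 3 kb, −0.208 for the insulin response sequence in 100 bp windows, and 0.264 (GENCODE classes) and 0.241 (internal TSSs) for peaks not of constant height. Peaks above the median maximum signal had an upstream share of 45.2% and a density ratio of 0.870. At outermost TSSs only, the upstream share was 68.2%, which turned the order of the sides, while the density ratio was 0.814; upstream space is larger there by construction. At internal TSSs only the upstream share was 34.9%. Differences below are upstream minus downstream in percentage points. At outermost TSSs they were −4.44 for peaks not of constant height, −1.83 for GC content and −63.4 for positions inside a gene body. There the insulin response sequence had 2.11, with an interval that includes 0 (−0.178 to 4.23). Genes with a proximal peak had 8.57, against the reported direction. At internal TSSs they were −0.358 for GC content and −0.918 (−2.37 to 0.604) for the insulin response sequence, both with intervals that include 0. They were 2.98 for genes with a proximal peak and 1.33 for positions inside a gene body. The last 3 turned the direction, but for the insulin response sequence the reported interval (−0.655 to 1.74) includes 0 as well. The difference in genes with a proximal peak was −3.88 without constant-height peaks. The difference inside a gene body was −29.9 with GENCODE classes, −35.9 with 1 peak per gene and side and −29.9 among genes with a proximal peak. The gene-body differences at outermost and internal TSSs follow largely from how these kinds of TSS are defined. Except where the construction of the subset is named, the cause was not tested.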
